A study of Xenopus laevis with 4 samples.

Results

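The cells described here are the ectoderm cells of in vitro fertilized (IVF) Xenopus laevis embryos at gastrula stage 12, taken on their own, without the nuclear transfer (NT) embryos of the same series. All deposited cells of both IVF libraries were used, which gave 1841 of the 3405 cells in the series. Each library came from ectoderm explants of a pool of 5 embryos in a separate experiment, with 2500 cells submitted, and they are called IVF1 (566 cells) and IVF2 (1275 cells). Eggs of frogs bought from a supplier were fertilized in vitro, and the labels give no further treatment, strain or genotype. Because embryos were pooled, differences between embryos and differences between cell states of one embryo cannot be told apart. The questions asked were how many cells carry each transcript, at which level, how far cells differ beyond counting noise, and which genes rise and fall together over cells in both libraries.

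At this stage the ectoderm covers the animal side of the gastrula and consists of an outer epithelial layer and an inner layer, also called the superficial and the deep layer. Its ventral cells take an epidermal fate under bone morphogenetic protein signals, and its dorsal cells form the neural plate, with a border zone between them. The outer epidermal layer gives rise mainly to mucus-secreting goblet cells, while the inner layer holds the precursors of basal stem cells, multiciliated cells and ionocytes. X. laevis is an allotetraploid species, so that many genes exist as a pair of similar copies (homeologs) on a long and a short chromosome.

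The deposited values are numbers of unique molecular identifiers (UMIs), each counting 1 captured transcript molecule, per gene and cell. IVF1 held 19577320 UMIs with a median of 27266.5 per cell (7045 to 135525), and IVF2 held 58592836 with a median of 44371 (6620 to 158935). No cell barcode was shared between the libraries. To compare cells and libraries at 1 depth, 6000 UMIs were drawn without replacement from every cell, a number that all 1841 cells reached. The 31179 genes are listed by gene model identifiers, and 0 of them were found among the 44456 genes of the reference table used here. Genes are therefore given by identifier, no role is given to any of them, and the label ectoderm could not be set against marker genes. Genes were named by a rule (highest level, largest repeated spread, strongest repeated pairs and leading gene of each group), and those chosen after their values were seen are marked as such. With 2 libraries of 1 group there is no contrast to test, so all values are descriptions and the library is the replicate (n = 2). Intervals are 95% exact binomial or Poisson intervals and cover counting error only. The share of RNA that did not come from the cell itself was not tested.

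Most of the transcriptome was sparse, and a small set of genes was found in nearly every cell. After thinning, a gene was seen in at least 1 cell for 20124 genes in IVF1 and 20722 in IVF2, of which 18353 were seen in both. At least 50% of cells carried 1609 genes in IVF1 and 1356 in IVF2, and 1139 genes reached that share in both libraries (3.65% of all genes listed). At least 90% of cells carried 370 genes in IVF1 and 396 in IVF2, with 284 in common. These nearly ubiquitous genes held 40.7% of all UMIs in IVF1 and 50.4% in IVF2. At the other end, 5710 genes in IVF1 and 7723 in IVF2 were found in no more than 1% of cells, apart from those seen in none, and together held 0.374% and 0.405% of UMIs. IVF2 has more cells (1275 against 566), so a rare gene has more chances to be seen at least once there. This applies to the number of genes seen in at least 1 cell as well. A thinned cell carried a median of 2777 different genes in IVF1 (2357 to 3113) and 2325 in IVF2 (1844 to 2824), so that the same number of UMIs was spread over fewer genes in IVF2. Without thinning, 4607 genes reached 50% of cells in both libraries.

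**Figure D1:**
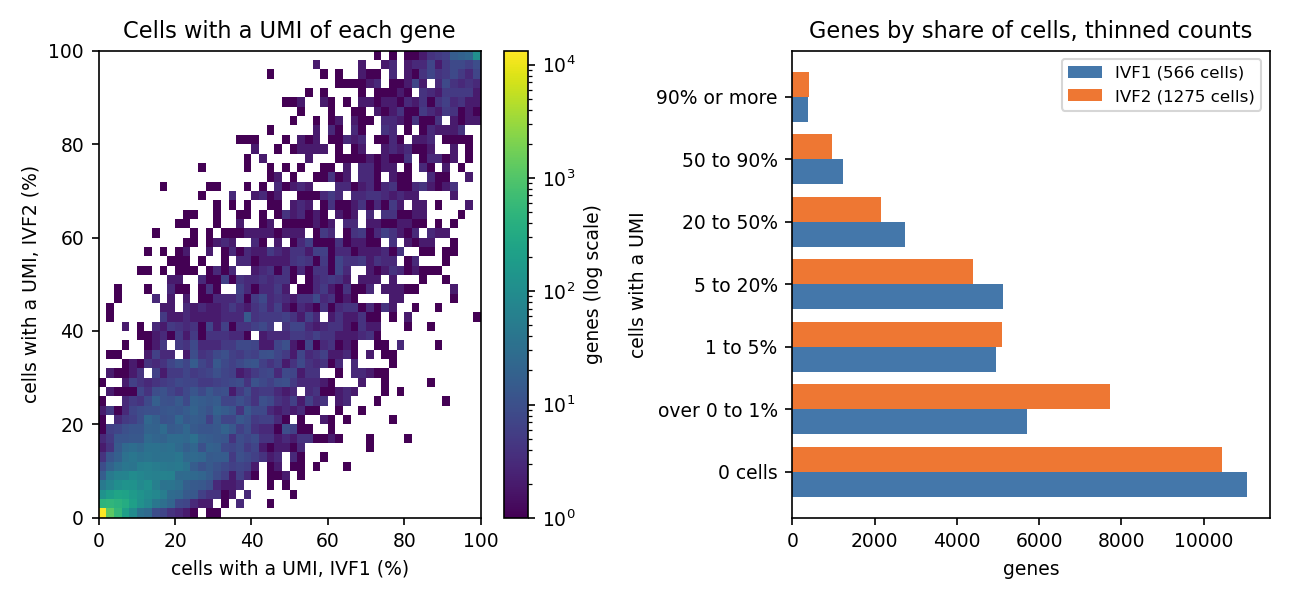
Share of cells with at least 1 UMI of each gene after thinning to 6000 UMIs per cell. The left panel sets the share in IVF1 against that in IVF2 (both in %, color for the number of genes on a log scale), and the right panel counts genes by share in each library. Most genes lie near 0 in both libraries, and 284 genes reached 90% of cells in both.

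The shares of single genes were similar in order between the libraries. Across the 18353 genes seen in both, the rank correlation of the shares was 0.898 (Spearman, across genes, which are not independent). Over the 3095 genes carried by at least 20% of cells in both libraries, the rank correlation of the mean level was 0.769. The 100 highest genes held 23.9% of UMIs in IVF1 and 30.5% in IVF2, and 73 genes were among the highest 100 in both. For a count that varies among cells by sampling alone, the mean fixes the share of cells without a UMI. Of the 3095 genes, 65 (2.1%) were carried in both libraries by at least 10 percentage points fewer cells than a Poisson count of the same mean would be. Of these 65 genes, 54 belong to group 1 and 9 to group 2, the gene groups described below, which hold 171 and 44 of the 3095 genes. The groups were chosen by correlation over these same counts, which favors genes with a wide spread. This overlap is therefore partly set by that choice.

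By the sum of its thinned means in the libraries, the highest gene was Xelaev18004064m.g, with a UMI in every cell of both. Its thinned count had a median of 88.0 UMIs in IVF1 (10th to 90th percentile 67 to 112.5, highest 147). In IVF2 its median was 103 UMIs (55 to 141, highest 212). The next gene, Xelaev18006236m.g, was also found in every cell, with a median of 43.0 UMIs in IVF1 (29 to 70) and 125 in IVF2 (97 to 157). The ranges of its middle cells thus did not overlap between the libraries, whereas those of Xelaev18004064m.g did. In IVF2 alone, Xelaev18006236m.g was the higher of the pair, with a mean of 128.5 UMIs against 100.9.

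The libraries differed widely in level although they are of 1 group. Of 9479 genes with at least 10 CPM (UMIs per 1000000 UMIs of the library) in at least 1 library, 3852 (40.6%) were at least 2-fold apart when UMIs were scaled to the library total. Of these, 3000 were higher in IVF1 and 852 (8.99% of the genes compared) in IVF2. This direction depends on the scaling: the median log2 ratio of IVF2 over IVF1 was -0.50 with totals and 0.27 with edgeR's TMM factors, under which 1089 genes were higher in IVF1 and 2263 in IVF2. Xelaev18006236m.g was at 8765 CPM in IVF1 (interval 8724 to 8807) and 21805 CPM in IVF2 (21767 to 21843), a log2 ratio of 1.31 with totals and 1.99 with TMM factors. Xelaev18032031m.g stood at 3135 and 3090 CPM, a log2 ratio of -0.02 with totals and 0.66 with TMM factors. Levels were summed over all cells, and the make-up of the cells also differed. On the high side of the ratio described below lay 58.0% of IVF1 cells and 32.9% of IVF2 cells. Xelaev18006236m.g was apart between the libraries on each side. Its thinned mean was 47.2 UMIs in IVF1 and 112 in IVF2 on the high side, and 46.9 and 137 on the low side. How far the make-up of the cells adds to the ratios of other genes was not tested. The 2 experiments, the embryo pools and any difference in library chemistry cannot be told apart in these ratios.

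Cell-to-cell spread was described by the excess squared coefficient of variation, the variance of the thinned counts less their mean, divided by the squared mean, which is 0 for pure sampling. It was computed for the 2516 genes with a thinned mean of at least 0.3 UMIs per cell in both libraries. The median gene had an excess of 0.1 in IVF1 and 0.104 in IVF2, and 290 genes were below 0.05 in both. A value of 0.5 or more was reached by 205 genes in IVF1 (8.15%) and 281 in IVF2 (11.2%). Both libraries reached it for 158 genes (6.28%), and a value of 1 or more for 42. The rank correlation of the excess between the libraries was 0.448 across the 2516 genes and 0.572 across the 838 genes with a mean of at least 1 UMI. Of the 158 genes, 96 belong to group 1, 13 to group 2 and 49 to neither. The choice of the groups by correlation over the same counts favors genes with a wide spread and sets part of this overlap.

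Ranked by the smaller of its values in the libraries, the largest excess was that of Xelaev18039352m.g. It had a UMI in 19.6% of IVF1 cells (interval 16.4 to 23.1) and 18.7% of IVF2 cells (16.6 to 21). Its mean was 0.403 UMIs in IVF1 and 0.428 in IVF2, while single cells held up to 10 and 12 UMIs. Its excess was 4.74 and 5.68. Xelaev18042551m.g followed, with a UMI in 21.2% and 16.1% of cells, up to 9 and 12 UMIs per cell and an excess of 4.0 and 6.24. Both genes were thus not seen in the thinned counts of most cells and had several UMIs in a few. Neither reached 20% of cells in both libraries, so neither entered the gene pairs described below.

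**Figure D2:**
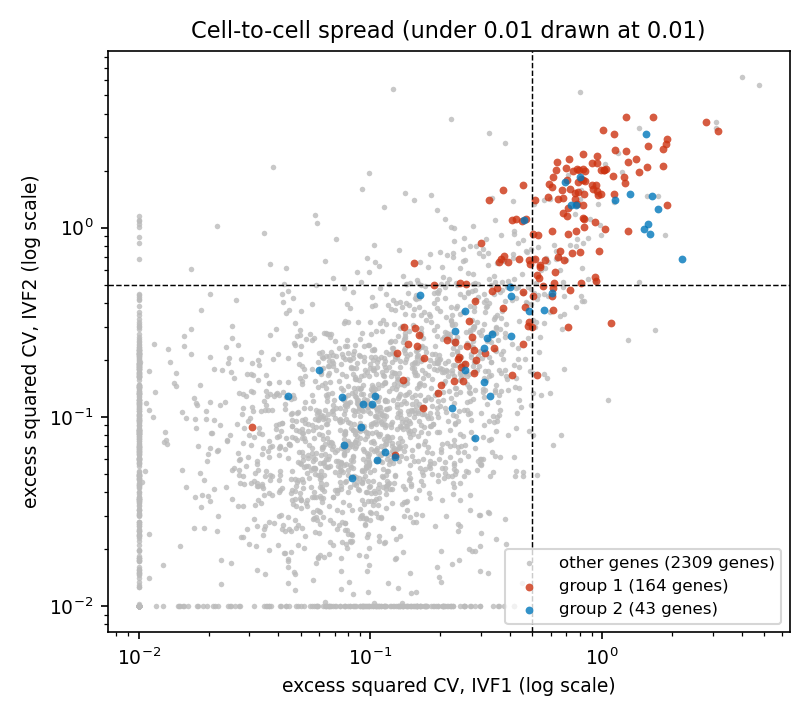
Excess squared coefficient of variation of the thinned counts over cells, in IVF1 against IVF2, for genes with a mean of at least 0.3 UMIs in both (log axes, values under 0.01 drawn at 0.01). Dashed lines mark 0.5, and red and blue points are genes of groups 1 and 2. The upper right field holds 158 genes, 96 of them red.

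Gene-gene correlations were computed within each library as Pearson's r of log2(thinned count + 1) over cells. The 3095 genes found in at least 20% of cells in both libraries give 4787965 pairs, whose median r was near 0 in both. At r of 0.3 or more stood 13707 pairs in IVF1 (0.286%) and 21783 in IVF2 (0.455%), and 7783 pairs reached it in both (0.163%). Of the pairs chosen in IVF1, 56.8% were repeated in IVF2, with a median r of 0.34 there. Of those chosen in IVF2, 35.7% were repeated in IVF1, with a median r of 0.24. The repeat was closer for stronger pairs: the 181 pairs at r of 0.7 or more in IVF1 had a median r of 0.73 in IVF2, and the 8473 pairs between 0.3 and 0.4 had 0.29.

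Negative correlations were repeated as well. Every cell is thinned to the same total, so a rise of some genes lowers the share of others by construction. How far this adds to negative r was not tested. At r of -0.2 or lower stood 31111 pairs in IVF1 (0.65%) and 52457 in IVF2 (1.1%), of which 15270 (0.319%) did so in both. Only 23 pairs passed the positive limit in one library and the negative limit in the other. The repeated pairs were held by few genes: 343 genes had a repeated positive partner, 682 a repeated negative one, and 2408 of the 3095 had neither. Of the 1386 pairs whose identifier numbers lie at most 5 apart, 13 (0.938%) were repeated positive pairs, 0.167% of all of them. Whether genes of a pair are homeologs or other near-identical copies that share reads was not tested.

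**Figure D3:**
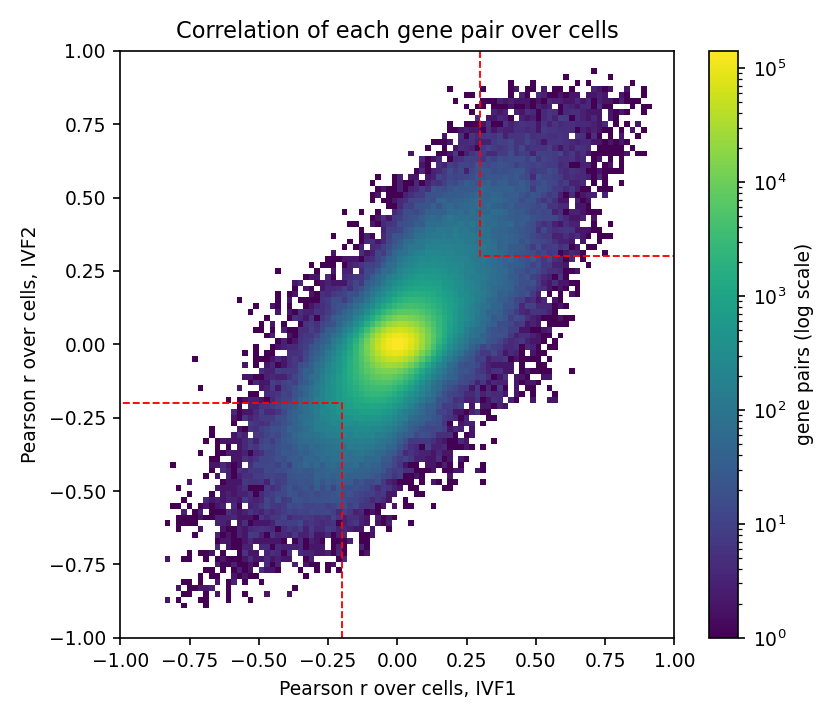
Pearson's r over cells of each of 4787965 gene pairs in IVF1 (x axis) and IVF2 (y axis), with the number of pairs as color on a log scale. Dashed corners mark the limits of 0.3 and -0.2, inside which 7783 and 15270 pairs lie. The cloud is drawn out along the diagonal on both sides of 0.

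Pairs were ranked by the r nearer to 0 of the libraries, and the first repeated pairs joined the same few genes. Xelaev18016082m.g and Xelaev18045889m.g had r of 0.89 in IVF1 and 0.88 in IVF2. Xelaev18016082m.g was also paired with Xelaev18043105m.g (0.86 and 0.89) and with Xelaev18021227m.g (0.89 and 0.84). The fourth pair, Xelaev18016668m.g and Xelaev18021227m.g, had 0.84 and 0.86. The first 4 negative pairs all held Xelaev18035740m.g. Its r was -0.84 and -0.86 with Xelaev18021227m.g, -0.82 and -0.87 with Xelaev18016082m.g, -0.80 and -0.83 with Xelaev18038704m.g, and -0.79 and -0.84 with Xelaev18045889m.g.

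Genes of one strong pair were thus high in the same cells, and Xelaev18035740m.g was high in the other cells. Xelaev18016082m.g had 196 repeated positive and 238 repeated negative partners. In IVF1 its thinned count ran from 1 UMI at the 10th percentile over a median of 28.0 to 48.0 at the 90th, and in IVF2 from 1 over 6 to 79. Xelaev18035740m.g had 78 positive and 280 negative partners, with 3, 10 and 34 UMIs at these percentiles in IVF1 and 3, 29 and 46 in IVF2. Both genes therefore ran from few UMIs in some cells to many in others within each library.

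Clustering the correlated genes of IVF1 by average linkage gave 4 groups of at least 8 genes, which were then read in IVF2. Group 1 held 171 genes led by Xelaev18016082m.g, with a median r among its pairs of 0.34 in IVF1 and 0.32 in IVF2. Group 2 held 44 genes led by Xelaev18035740m.g, with 0.32 and 0.28. Group 4 held 29 genes led by Xelaev18006236m.g, with 0.29 and 0.15, just inside the limit of 0.15 for a repeated group. Group 3 held 36 genes led by Xelaev18032031m.g, with 0.31 and 0.11, under that limit. Of the 630 pairs of group 3, 5 were repeated positive pairs, and of the 406 pairs of group 4, 37 were. With another draw of the same number of UMIs, 7 groups were made, of which 5 were repeated, so the smaller groups depend on the draw. In that draw, 155 genes of group 1 and 36 of group 2 again fell into 1 group each (90.6% and 81.8% of them).

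Groups 1 and 2 held most of what was repeated. They were made from genes with a pair at r of 0.3 or more in IVF1, which a repeated positive pair also needs. Part of this concentration is therefore set by the choice of genes. Of the 7783 repeated positive pairs, 82.0% lay within one of them, and 99.2% included at least 1 of their genes. Within group 1, 6061 of 14535 pairs (41.7%) were repeated, and within group 2, 318 of 946 (33.6%). Between these groups, 5214 of 7524 pairs (69.3%) were repeated negative pairs. Over all pairs, 0.163% were repeated positive and 0.319% repeated negative pairs. Summed per cell, the shares of UMIs of groups 1 and 2 had a correlation of -0.89 in IVF1 and -0.96 in IVF2. The fixed total per cell lowers this correlation by construction, to an extent that was not tested. Made in IVF2 instead, the largest group held 226 genes, of which 131 were of group 1 (58.0% of the new and 76.6% of the old group). The second held 79 genes, of which 26 were of group 2 (32.9% and 59.1%). Their median r was 0.35 and 0.31 in IVF2 and 0.21 and 0.15 in IVF1, the second just inside the limit for a repeat.

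The ratio of group 1 UMIs to group 2 UMIs per cell fell into separate peaks in each library, with few cells between them. A threshold set by Otsu's method in each library put 328 of 566 IVF1 cells on the high side of the ratio (58.0%, interval 53.8 to 62.1) and 420 of 1275 IVF2 cells (32.9%, 30.4 to 35.6). Within 0.1 on the log10 scale of the threshold lay 6 cells of IVF1 and 27 of IVF2. Scrublet called 7 and 31 cells doublets (1.24% and 2.43%), of which 4 and 10 were among these cells near the threshold. Their part in the cells between the peaks was not tested further. The sides were set from the genes of groups 1 and 2 and are ranges of a score, to which no cell type is given. The groups were made from the correlations of IVF1, so the correlations of IVF2 were not used in choosing the genes. Its counts were used in part, because a gene had to be in at least 20% of cells in both libraries. A gene absent from most cells of 1 side can pass that limit through the other side. The 2 peaks of IVF2 are therefore a description and no independent support. With another draw, 566 of 566 and 1272 of 1275 cells stayed on their side. With the largest 2 groups made in IVF2, 566 and 1271 cells did. The other draw used the same cells and genes, and the groups made in IVF2 share 131 and 26 genes with groups 1 and 2. Much of this agreement is therefore set in advance. Depth was similar on both sides in IVF2 (median 45062 UMIs per cell on the high and 44027 on the low side) and lower on the high side in IVF1 (24592.5 and 28046).

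**Figure D4:**
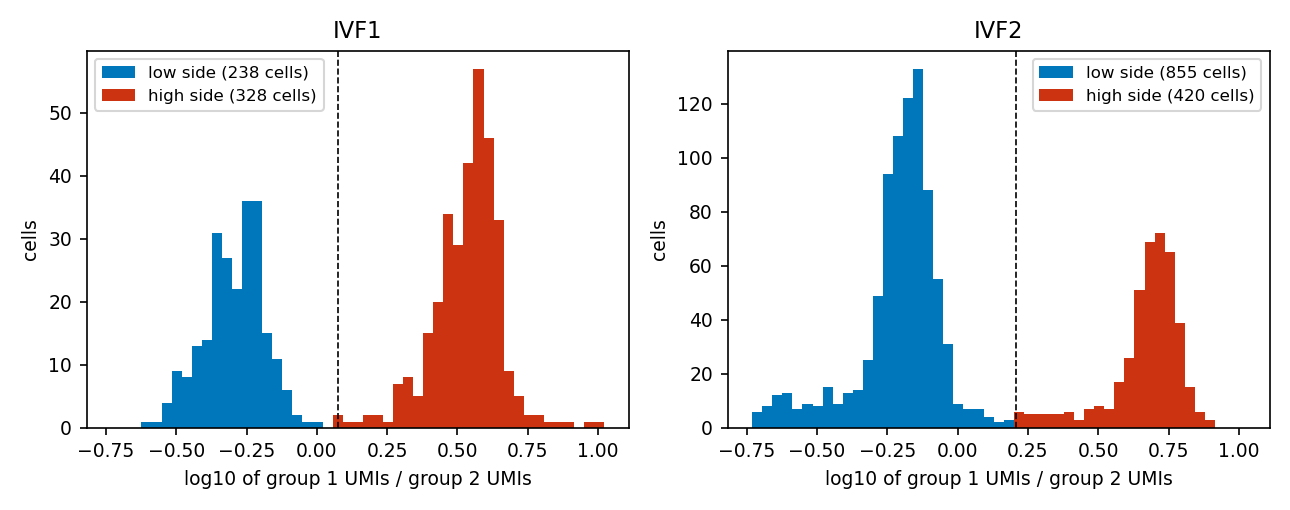
Cells by the log10 of the ratio of group 1 to group 2 UMIs (thinned counts) in IVF1 and IVF2, with the threshold of each library as a dashed line. Red cells are on the high side (328 and 420 cells) and blue cells on the low side (238 and 855). Each library shows 2 peaks, the larger one high in IVF1 and low in IVF2.

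A cell on the high side gave a median of 13.6% of its UMIs to group 1 in IVF1 and 20.4% in IVF2, against 3.95% and 6% on the low side. Group 2 took 3.83% and 4.1% on the high side and 7.62% and 9.25% on the low side. The sides thus differed more in group 1 than in group 2, and both groups took a larger share of UMIs in IVF2 than in IVF1 on either side. The median gene of group 1 was 7.09-fold higher on the high side in IVF1 and 4.25-fold in IVF2, and the median gene of group 2 had 0.409 and 0.391 times the low-side level. These folds describe genes that set the sides and are no result about them. Group 4 took 4.25% of UMIs on the high side and 4.89% on the low side in IVF1, but 7.27% and 9.90% in IVF2. The shares of groups 4 and 1 had a correlation over cells of -0.79 in IVF2 and -0.25 in IVF1. The fixed total per cell lowers the group 4 share on the high side and this correlation by construction, to an extent not tested. After thinning, the group 4 share still had r of 0.37 in IVF1 and 0.29 in IVF2 with the log10 of a cell's unthinned UMIs. This r was -0.09 and -0.07 for group 1, 0.13 and 0.14 for group 2, and -0.22 and 0.13 for group 3. How far depth adds to the correlations among group 4 genes was not tested. A low end of the ratio was set at under -0.4 on the log10 scale, a limit chosen after the plot was seen. It held 41 of 238 low-side cells in IVF1 and 92 of 855 in IVF2 (7.24% and 7.22% of all cells). The limit was the same in both libraries, whereas the median low-side ratio was 0.522 in IVF1 and 0.657 in IVF2. The like shares of all cells are therefore cut from unlike parts of the low side. Cells under the limit had a median of 3.12% of UMIs in group 1 in IVF1 and 2.99% in IVF2. The other cells of the low side had 4.05% and 6.12%, a direction that the limit itself fixes.

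The following genes of groups 1 and 2 entered the ratio, so their values on the sides are a description only. Xelaev18016082m.g had a median of 39 UMIs on the high side of IVF1 (10th to 90th percentile 25 to 51) and 2 on the low side (0 to 5). In IVF2 these medians were 70.5 (38.9 to 92) and 3 (1 to 9.6). Its middle ranges did not overlap in either library, yet 83.2% and 91.3% of low-side cells still carried at least 1 UMI. Xelaev18035740m.g had medians of 6 on the high and 28 on the low side in IVF1, and 5 and 35 in IVF2. It also had a UMI in 99.7% and 99.5% of high-side cells. Whether the few UMIs of either gene on its lower side came from the cells themselves was not tested. Xelaev18021227m.g was found in 100% and 99.0% of high-side cells and in 25.6% and 32.0% of low-side cells. Xelaev18004064m.g is also in group 1 and had means of 94.6 and 80.2 UMIs on the high and low sides of IVF1 and 124 and 89.6 in IVF2. Over all genes listed, 44 (0.141%) were found in at least 50% of high-side cells and in under 20% of low-side cells in both libraries, 41 of them of group 1. The reverse held for 5 genes (0.016%), all of group 2, while 947 genes reached 50% of cells on both sides of both libraries.

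**Figure D5:**
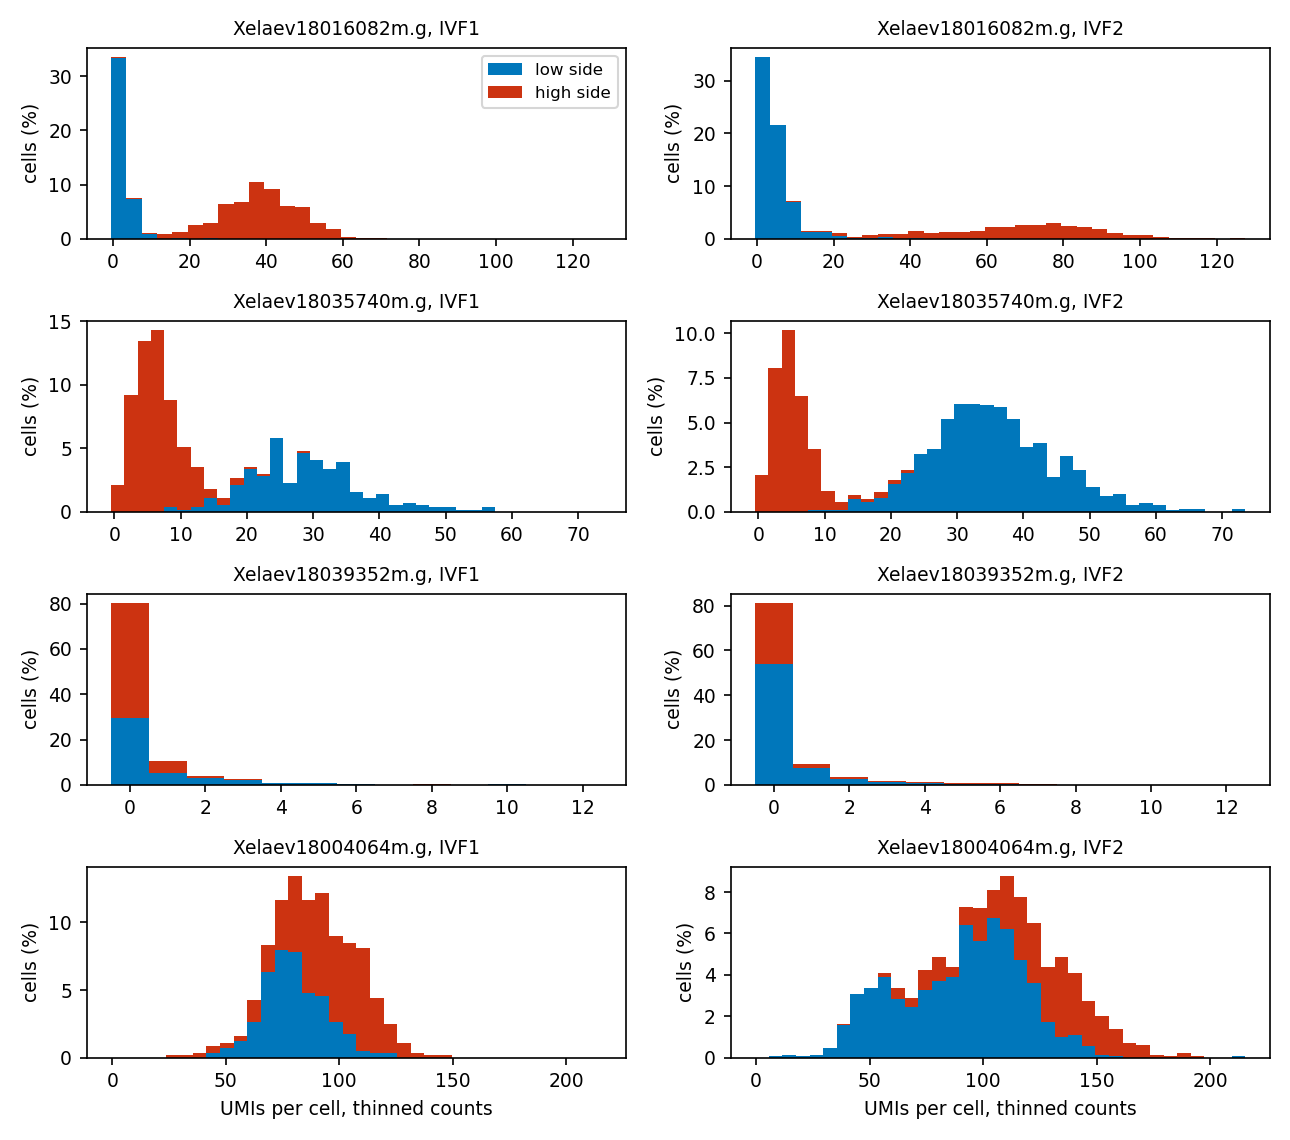
Share of cells (%) by number of UMIs of a gene after thinning, in IVF1 (left) and IVF2 (right), with high-side cells in red stacked on low-side cells in blue. Xelaev18016082m.g and Xelaev18035740m.g each have separate high and low cells, whereas Xelaev18039352m.g is at or near 0 in most cells of both sides. Xelaev18004064m.g has broad ranges that overlap between the sides. Its low-side counts spread wider in IVF2 (10th to 90th percentile 49.4 to 122 UMIs) than in IVF1 (64 to 99.3).

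Outside groups 1 and 2, fewer genes followed the sides. Of 2880 such genes, 90 (3.12%) had a thinned mean at least 2-fold higher on the high side in both libraries and 44 (1.53%) at least 2-fold lower. The 2880 genes did not enter the ratio, but those correlated with the groups in IVF1 had entered the same clustering. Among all 3095 genes, which include the genes of groups 1 and 2 that set the sides, 1 was 2-fold apart in opposite directions. In the same set, 523 (16.9%) differed by less than 1.2-fold in both libraries. Group 1 itself holds 1 gene at least 2-fold lower on the high side of IVF2. Group 3 genes had a median ratio of the high to the low side of 0.753 in IVF1 and 0.811 in IVF2, with no member 2-fold apart. The fixed total per cell lowers genes outside group 1 on the high side by construction. How far it adds to the group 3 ratios and to the 44 lower genes was not tested.

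Correlations were also computed within each side. The sides are cut on the groups' own UMIs, which lowers r within a side by construction for pairs with a gene of groups 1 or 2. The 7783 repeated pairs had a median r of 0.07 in IVF1 and 0.06 in IVF2 over high-side cells, and of 0.03 and 0.07 over low-side cells. At the limit of 0.3 in both libraries stood 65 pairs on the high side (0.00136%), 51 of them also repeated over all cells, and 17 on the low side (0.000355%), 8 of them repeated over all cells. Repeated negative pairs numbered 204 (0.00426%) and 62 (0.00129%). None of the 3 groups made within each side of IVF1 was repeated in IVF2 at this depth.

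The same was done at greater depth. With cells of at least 20000 UMIs thinned to that number (205 and 369 cells on the high side, 179 and 812 on the low side), 340 pairs (0.0071%) were repeated on the high side and 336 (0.00702%) on the low side. The same cells thinned to 6000 UMIs gave 24 (0.000501%) and 14 (0.000292%) pairs. Of 6 groups made on the high side 1 was repeated, with 19 genes led by Xelaev18016082m.g, 17 of them of group 1, and a median r of 0.33 in IVF1 and 0.19 in IVF2. Of 8 groups made on the low side 1 was repeated, with 8 genes led by Xelaev18000724m.g and a median r of 0.42 and 0.19.

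A few pairs stood out within a side. Their choice followed from their values. Xelaev18006236m.g and Xelaev18009768m.g, both of group 4, had r of 0.72 and 0.55 on the high side at 6000 UMIs. Both were in every cell, with means of 47.2 and 29.9 UMIs on the high side of IVF1 and 112 and 56.8 in IVF2. Xelaev18016082m.g and Xelaev18045889m.g, the first pair over all cells by the smaller r, had r of 0.53 and 0.61 within the high side and had 0.19 and 0.47 within the low side. By contrast, Xelaev18016668m.g and Xelaev18021227m.g had 0.0017 and 0.42 within the high side. On the low side the first pair was Xelaev18023995m.g with Xelaev18025905m.g, with r of 0.64 and 0.45 at 6000 UMIs and 0.83 and 0.74 at 20000. Both genes are members of group 1, yet their low-side means were 3.95 and 3.04 UMIs in IVF1 and 4.18 and 2.91 in IVF2, and the high side was 2.25-fold and 1.98-fold higher in IVF1 but 0.980-fold and 1.07-fold in IVF2.

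Excess variation also narrowed within the sides. For genes of groups 1 and 2, a lower excess follows in part from the cut on their own UMIs. The limit of 0.3 UMIs was applied to the mean over all cells, so a gene can lie under it on a side. Over the same 2516 genes, 32 (1.27%) reached 0.5 in both libraries among high-side cells and 71 (2.82%) among low-side cells, and 18 genes did so on both sides. Of the 109 genes of groups 1 and 2 with repeated excess over all cells, 47 kept it on at least 1 side, and of the 49 genes outside the groups, 21 did. By the same ranking, Xelaev18039352m.g had the largest repeated excess on the high side, 7.91 and 6.62, where 12.2% and 16.9% of cells carried it, and had 2.66 and 4.81 on the low side with 29.8% and 19.6% of cells. Its high-side mean was 0.189 UMIs in IVF1, under the limit of 0.3, and 0.498 in IVF2. This was 0.271 times the low-side mean in IVF1 and 1.26 times in IVF2, so its direction between the sides was not repeated.

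On the low side the largest repeated excess, again by the smaller value, was that of Xelaev18021230m.g, a gene of group 1 chosen after its values were seen. It was found in 4.62% of low-side cells in IVF1 and 13.8% in IVF2, with an excess of 4.73 and 8.43 there. Its low-side means were 0.0546 UMIs in IVF1 and 0.187 in IVF2, both under the limit applied to the mean over all cells. The low-side excess thus rests on few UMIs, in IVF1 most of all. On the high side it was found in 47.3% of IVF1 cells and 96.0% of IVF2 cells. Over all cells it was at 115 CPM in IVF1 and 516 CPM in IVF2, a log2 ratio of 2.16 with totals and 2.84 with TMM factors. Xelaev18033986m.g, a sparse gene named outside the rule and after its values were seen, was found in 3.36% of IVF1 cells and 1.96% of IVF2 cells after thinning and in 10.8% and 11.9% without it, too few for the pairs.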

How the data were processed

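Single-cell libraries of stage 12 ectoderm were made by the authors on the 10x Genomics platform, in v2 and v3 chemistry without a statement of which library had which. Reads were mapped to the X. laevis genome with Cell Ranger (2.2.0 in the submitters' processing notes) and STAR; the authors kept cells above 6000 UMIs and 2000 genes, and deposited whole-number UMI counts per gene and cell, without normalization. The number of deposited barcodes equals the number of cells the methods state after filtering. The methods also report that a cluster with few UMIs and genes and some outlier cells were taken out at clustering. They describe this step after the filtering that left these cell numbers. Whether such cells are among those used here was not tested. The 1841 cells of the 2 IVF libraries were used, and the NT files gave only cell numbers and barcodes.

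Each cell was thinned without replacement to 6000 UMIs (seed 12). Detection, mean, excess squared coefficient of variation, Pearson's r of log2(count + 1) and average-linkage groups (height 0.75, on 1 - r, at least 8 genes, a median r of 0.15 for a repeat) were computed in Python 3.11.15 with numpy 2.4.6 and scipy 1.17.1. The side threshold used scikit-image 0.26.0 (Otsu, 64 bins, 0.5 added to both sums), and Scrublet (scanpy 1.11.5, expected rate 5%) marked likely doublets, left out in 1 alternative only. Levels were CPM of counts summed over cells, with TMM factors of edgeR 4.0.16 and size factors of DESeq2 1.42.0 as alternatives (R 4.3.3). On simulated counts with 200 of 2848 genes changed 6-fold between cell classes in IVF1 and IVF2, both classes were recovered for 566 of 566 and 1274 of 1275 cells, and all 12166 repeated pairs were among the changed genes. The simulated cells held only these classes, with shares set near those of the sides, and no doublets or RNA from other cells. The real median ratio of the sides was 7.09-fold and 4.25-fold for group 1, and 0.409 and 0.391 times for group 2. The 6-fold change was thus wider than most of these, which makes recovery easier. Other spread was drawn apart for each gene, so pairs outside the changed genes had little way to arise. The simulation checks the steps and cannot show how many classes the real cells hold.

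Genes named were the 2 of highest mean level, the 2 of largest excess by the smaller of the libraries' values, the first 4 pairs of each sign and the leading gene of each group. A list of marker genes could not be used without gene symbols. The members, limits and lists were chosen with earlier results of these data known. No separate animals are known within a library, so the spread between embryos is not visible. Alternatives were other depths, another seed, no doublets, each library alone, other kinds of r, other limits and other scaling.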

Additional observations from a re-analysis of the deposited data

How the results depend on the processing

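Of 85 recomputed counts and summary values, 45 stayed within 1.5 times the main value (for the median r, within the spread between directions) and 40 did not. Of 94 recomputed values of single named genes and pairs, 38 stayed within the spread between the libraries and 56 did not. No paired analysis was possible because there is only 1 group and no test. Gene sets were kept as in the main analysis unless the alternative names them. Depth moved most counts, together with the set of cells that reach it. Thinning to 10000 UMIs kept 511 cells of IVF1 and 1225 of IVF2, and thinning to 20000 kept 384 and 1181. Genes in at least 50% of cells in both libraries rose from 1139 to 1800 with thinning to 10000 UMIs, 3084 with 20000 and 4607 with no thinning, and 284 reached 90% of cells. Repeated positive pairs rose from 7783 to 16466, 35924 and 53629 in these settings, and repeated negative pairs from 15270 to 35353, 87541 and 128100. The repeated groups were 3 in the main analysis and 5, 6 and 8 in these settings, and 5 with another seed. At 20000 UMIs, 7763 of the 7783 positive pairs were kept, and with another seed 6618.

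Limits moved the counts as well. Positive pairs numbered 21459 at r of at least 0.2, 2927 at 0.4 and 2127 among genes in at least 50% of cells. Negative pairs numbered 34838 at -0.15 or lower, 3741 at -0.3 or lower and 5442 among genes in at least 50% of cells. Genes with repeated excess variation numbered 158 in the main analysis, 46 with a thinned mean of at least 1, 451 with at least 0.1, and 42 at an excess of at least 1. Genes 2-fold apart between the libraries numbered 11558 with no minimum other than 1 UMI and 1259 with at least 50 CPM, against 3852. With TMM factors 67.5% of the genes 2-fold apart were higher in IVF2, with DESeq2 size factors 67.6% and with totals 22.1%.

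Without 1 library the count rests on the other one alone and is no longer of repeated features: it ran from 1356 to 1609 for genes in at least 50% of cells, 205 to 281 for excess variation, 13707 to 21783 for positive pairs and 31111 to 52457 for negative pairs.

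The sides were analysed alone after the data were seen. The high side gave 32 genes with excess, 65 positive and 204 negative pairs, and the low side 71, 17 and 62. At 20000 UMIs the positive pairs were 340 and 336, and with the same cells at 6000 UMIs 24 and 14. The median r in IVF2 of pairs chosen in IVF1 lay between 0.29 and 0.37 in the alternatives over all cells. Within the sides it was 0.12 on the high and 0.04 on the low side at 6000 UMIs, and 0.07 and 0.05 at 20000. The rank correlation of excess lay between 0.338 and 0.615.

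Depth limits these values: at 6000 UMIs most genes have few or no UMIs per cell, so a missing UMI does not show that a gene is off, and correlations of sparse genes were not described. With 2 libraries, the spread of any value between experiments rests on 1 difference.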
